A study of Homo sapiens with 6 samples.

Results

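The replication-dependent histone genes encode the bulk of the H1, H2A, H2B, H3 and H4 proteins that package newly made DNA. They were chosen by their symbols, as every row of the gene table that carries a clustered H1, H2A, H2B, H3 or H4 gene symbol, with names of pseudogenes left out. Of 47577 rows in the table, 64 met this rule and held 68 gene symbols, since 4 rows joined a pair of genes. A level of at least 10 DESeq2-normalized reads in at least 3 of the 6 libraries was reached by 45 of the 64 histone rows and by 17568 of all rows. The other 19 histone rows stayed below it.

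RNA was taken from OVCAR3 cells, an established line of high-grade serous ovarian adenocarcinoma, and sequenced as polyA RNA. The 3 control libraries came from cells given the solvent DMSO for 6 h, and the 3 treated libraries from cells given THZ531 for 6 h at 200 nM. THZ531 is a covalent inhibitor of CDK12 and CDK13, kinases that phosphorylate the carboxyl-terminal domain of RNA polymerase II. The sample titles name THZ531, while the general treatment note in the labels names THZ1, a related compound; the groups follow the titles. All libraries are from a single cell line, and the labels do not say whether the replicates came from separate cultures, so the p-values measure the spread between these libraries, which may be technical.

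Reads on genes ranged from 53054048 to 70986130 per library, and a single read was worth 0.794 to 1.26 normalized reads. The 8 serous and epithelial markers were all expressed, and 7 of them were not called, with a median log2 fold change of 0.19 over the 8. The exception was a decrease: PAX8, a transcription factor of the Müllerian lineage, fell from 10645, 11535 and 11636 in the DMSO libraries to 1184, 1161 and 1380 in the THZ531 libraries. Among 8 markers of other cell types, CD3E and ALB had no reads. Of the 6 tested, 3 increased (VWF, COL1A1 and COL3A1), or 50%, beside 15.7% of all loci. The summed level of the 8 markers ranged from 1913 to 2158 with DMSO and from 3518 to 3770 with THZ531. The part of these markers in the histone result was not tested.

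Most replication-dependent histone mRNAs carry no polyA tail. They end a few bases after a short hairpin, the histone stem-loop, which is bound by the stem-loop binding protein SLBP and cut through the U7 small nuclear ribonucleoprotein, and they are made and destroyed with S phase. Some of the same genes also give rise to polyadenylated transcripts that run past the stem-loop, and libraries made from polyA RNA sample those. The levels below are therefore levels of polyA-selected RNA. The tail-less mRNAs of the same genes were not measured separately, and which transcript forms gave the reads was not examined.

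A stem-loop lay within 100 bases after the stop codon in 68 of the 68 genes, searched in the hg38 sequence with GENCODE models. The same search found it in 14 of 19851 other coding genes (0.0705%), among them the histone genes H2AX, H3-4, H3-7 and H4C16. The genes carried 10 different versions, and 40 of the 68 shared the most frequent version. The stem-loops of the members with the highest levels or the clearest changes are shown here 5′ to 3′ in the sense of the gene, with the 16-base hairpin in capitals.
H2BC21 (chr1:149886183-149886208, minus strand): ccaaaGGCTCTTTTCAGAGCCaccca
H2BC4 (chr6:26123467-26123492, minus strand): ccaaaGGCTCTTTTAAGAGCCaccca
H2BC12 (chr6:27146361-27146386, minus strand): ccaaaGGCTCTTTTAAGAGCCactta
H2BC5 (chr6:26158582-26158607, plus strand): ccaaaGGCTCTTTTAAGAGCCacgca
H2AC6 (chr6:26124664-26124689, plus strand): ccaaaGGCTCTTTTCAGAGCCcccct
H3C15 (chr1:149853100-149853125, plus strand): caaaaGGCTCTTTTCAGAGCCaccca
H3C6 (chr6:26225591-26225616, plus strand): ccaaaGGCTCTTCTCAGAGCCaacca
H4C14 (chr1:149833027-149833052, plus strand): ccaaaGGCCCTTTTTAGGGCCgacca
H2BC4, H2BC12 and H2BC5 shared a single version, although H2BC4 and H2BC12 increased and H2BC5 did not. H3C6, the member that decreased, carried a version found in no other gene of the rule. The same held for H2AC20, H2AC11 and H2AC15, which increased, for H2BC10, which was not called, and for H4C13, which was below the minimum.

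Promoters were read from RefSeq on GRCh38.p14 as the 250 bases before the gene start and were found for 63 of the 68 genes. For the 4 histone genes with more than 1 listed start, the start closest to the stem-loop was used, and for all other genes the first listed. The TATA box core TATAAA stood on either strand in 41 of the 63 (65.1%), against 11.1% of 27305 RefSeq promoters of the same length. CCAAT stood in 54 of the 63 (85.7%), against 33.0%, and the octamer ATTTGCAT, a sequence bound by POU2F1 (Oct-1), in 25 of the 63 (39.7%), against 1.66%. The octamer was found in 11 of 16 H2A and 14 of 18 H2B promoters, and in 0 of 11 H3, 0 of 12 H4 and 0 of 6 H1 promoters. The 3 motifs were counted separately, and a base could belong to more than a single motif. The promoters of H2BC21 and H2BC5, the tested H2B genes with the largest increase and with the only lower mean under THZ531, follow with each motif in capitals on either strand.
H2BC21 (chr1:149886683-149886932, minus strand): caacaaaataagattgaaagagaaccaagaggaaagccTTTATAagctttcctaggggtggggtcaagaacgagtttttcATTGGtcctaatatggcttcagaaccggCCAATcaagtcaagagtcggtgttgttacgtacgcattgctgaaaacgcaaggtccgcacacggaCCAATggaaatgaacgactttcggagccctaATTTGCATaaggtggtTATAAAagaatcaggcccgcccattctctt
H2BC5 (chr6:26157872-26158121, plus strand): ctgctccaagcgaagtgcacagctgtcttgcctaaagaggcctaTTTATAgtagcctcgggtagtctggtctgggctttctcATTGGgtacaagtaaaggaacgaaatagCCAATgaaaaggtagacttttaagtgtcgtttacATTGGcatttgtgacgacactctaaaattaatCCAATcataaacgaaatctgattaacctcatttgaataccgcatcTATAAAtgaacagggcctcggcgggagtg
Among tested H2A and H2B rows with a promoter for each of their genes, 13 of the 16 with the octamer increased (median log2 fold change 1.14), as did 7 of the 8 without it (median 1.15).

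The comparison asked how polyA-selected RNA of these genes changed with inhibition of CDK12 and CDK13. A gene is called changed where its level differed by 1.5-fold or more and its unadjusted p was 0.05 or less, the thresholds of the study, in a limma fit over all 17568 loci on log2(normalized reads + 1), and fold changes are on that scale. Of the 45 histone rows tested, 33 increased (73.3%), 1 decreased (2.22%) and 11 were not called. Over all loci tested, 15.7% increased and 23.9% decreased. The median log2 fold change of the 45 was 1.06, against -0.01 for all loci, and 40 of the 45 had a value above 0.

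Every THZ531 library lay above every DMSO library for 35 of the 45 (77.8%), against 36.0% of all loci. Every THZ531 library lay below every DMSO library for only 2 of the 45, H2BC5 and H3C6, against 35.7% of all loci. A member could reach the minimum through the THZ531 libraries alone, and H1-6 and H3C1, which were under 10 in every DMSO library, did so. In all, 11 tested members were under 10 in at least 1 DMSO library and needed THZ531 libraries to reach the minimum. Of these, 6 increased: H3C14 // H3C15, H1-6, H3C1, H3C13, H2BC13 and H3C7. For such members the minimum itself favoured an increase. Among the 34 members at 10 or more in every DMSO library, 27 increased and 1 decreased, with a median log2 fold change of 1.05. Leaving out each library in turn, 6 of the 33 increases lost their call at least once: H4C5, H2BC15, H3C7, H3C8, H4C12 and H4C11. Of the 11 members not called, 6 passed at least once. By mean level, 6 of 8 members at 500 or more increased, 20 of 24 between 50 and 500, and 7 of 13 tested members below 50.

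The result depended in size on how the libraries were scaled. The deposited values sum to more in the THZ531 libraries than in the DMSO libraries, from 65875600 to 66820400 against 55389700 to 56639200. With all libraries brought to the same total, which moved log2 fold changes by about -0.24, 27 members increased and 2 decreased, beside 9.38% and 32.0% of all loci. With scaling to RPL34, the ribosomal protein mRNA used as reference in the qPCR of the study, which moved them by about -0.49, 17 increased and 2 decreased, beside 6.14% and 42.8% of all loci. H2BC5 and H3C6 were the 2 that decreased under both scalings.

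**Figure D1:**
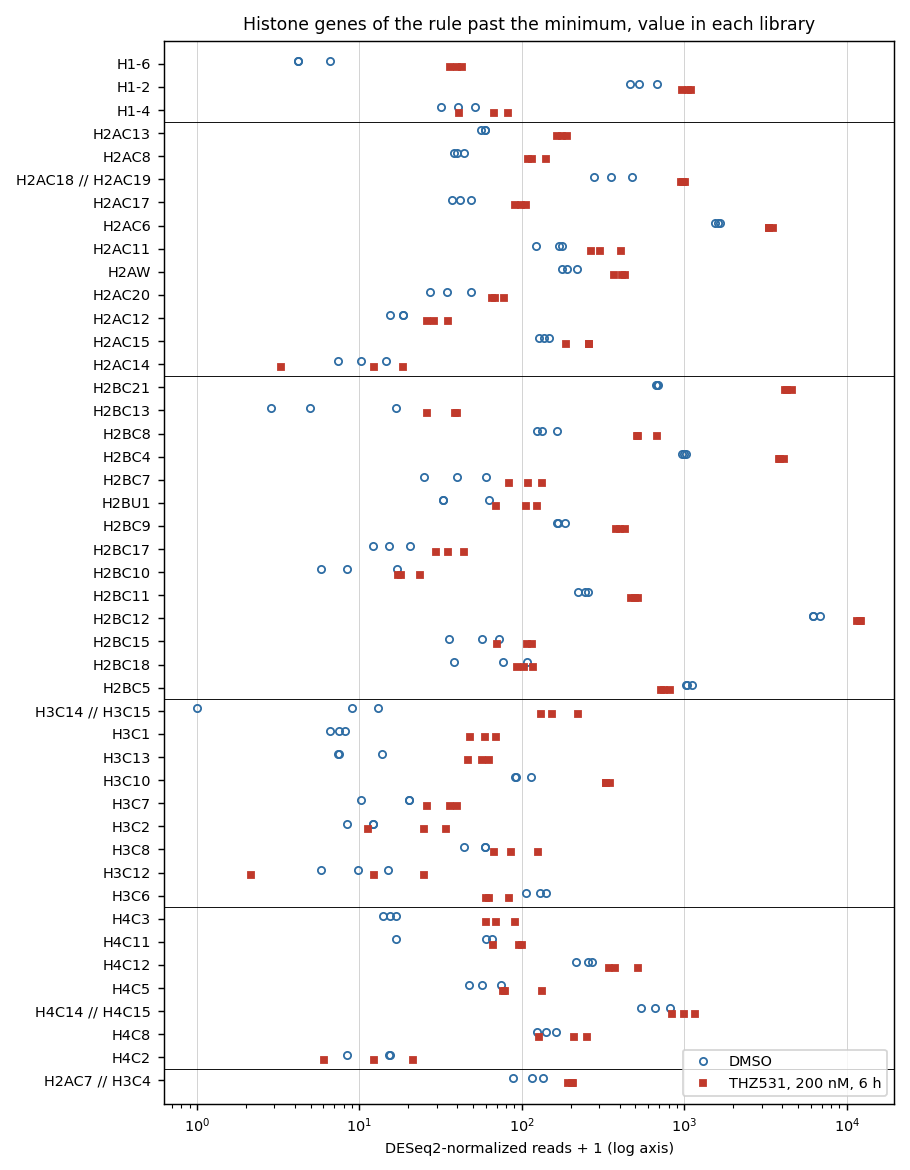
DESeq2-normalized reads plus 1 on a log axis for the 45 histone rows past the minimum, 1 row per gene grouped by class, with open circles for the 3 DMSO libraries and filled squares for the 3 THZ531 libraries. The squares lie right of all circles for 35 rows and left of all circles for H2BC5 and H3C6.

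The summed level of the 45 members was 15523, 14409 and 14526 normalized reads in the DMSO libraries. It was 34066, 32655 and 31776 in the THZ531 libraries. The groups did not overlap. The ratio of the geometric means was 2.22 (exact permutation test, two-sided p = 0.1, the smallest that 3 libraries against 3 allow). As a share of all reads on genes, the members took 0.0265% with DMSO and 0.0496% with THZ531. H2BC12 alone gave 43.3% of the DMSO sum, and without it the ratio was 2.48. Members of under 1000 bases in the table had a ratio of 2.20.

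By class, the summed level was higher with THZ531 by a ratio of 1.92 for H1, 2.19 for H2A, 2.31 for H2B, 2.53 for H3 and 1.58 for H4, and in each class every THZ531 library was above every DMSO library (exact permutation p = 0.1 for each class). The H2B genes gave 67.0% of the sum with DMSO and 69.9% with THZ531. The H4 genes gave 8.03% and 5.70%. The values are not corrected for gene length, so these shares are shares of reads and not of transcripts.

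**Figure D2:**
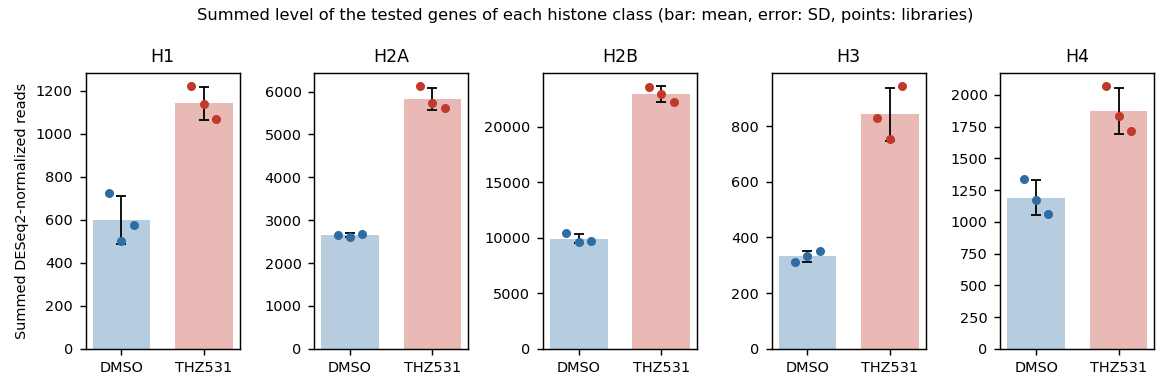
Summed DESeq2-normalized reads of the tested members of each histone class, with bars for the mean, error bars for the SD of 3 libraries and points for the libraries. In each of the 5 classes the 3 THZ531 points lie above the 3 DMSO points. The ratios of the geometric means run from 1.58 for H4 to 2.53 for H3.

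The H2B genes encode the partner of H2A in the nucleosome core, and 11 of 14 tested increased, 0 decreased and 3 were not called. H2BC21 had 680, 688 and 667 normalized reads with DMSO and 4564, 4288 and 4176 with THZ531. Its groups were far apart, with a log2 fold change of 2.68 ± 0.056 (SE, n = 3 per group; limma, adjusted p = 9.2e-15), and its share of the histone sum went from 4.58% to 13.2%. H2BC4 had 994, 962 and 1024 with DMSO and 4125, 3858 and 3841 with THZ531 (log2 fold change 1.99 ± 0.054, limma adjusted p = 1.0e-13). H2BC12, with the highest values of the list, had 6816, 6211 and 6204 with DMSO and 12247, 12026 and 11587 with THZ531. It increased by less than H2BC21 and H2BC4 on the log2 scale, at 0.90 ± 0.043, and its span overlaps that of H4C9.

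H2BC8 had 164, 133 and 123 normalized reads with DMSO and 518, 674 and 510 with THZ531, a log2 fold change of 2.01 ± 0.14. H2BC5 went the other way, from 1119, 1022 and 1038 with DMSO to 719, 747 and 809 with THZ531. Its groups did not overlap, and its log2 fold change of -0.48 ± 0.074 had a limma adjusted p of 2.3e-05 but did not reach the fold of 1.5. It was singled out after its values were seen. The share of H2BC5 in the histone sum went from 7.15% to 2.31%. The other H2B calls had log2 fold changes from 0.86 for H2BC15, whose span overlaps H2AC15 and whose call was lost without DMSO replicate 2 (0.58) or THZ531 replicate 2 (0.73), to 2.46 for H2BC13, which had few reads (27 over the DMSO libraries and 86 over the THZ531 libraries). H2BC18, not called at 0.61 ± 0.31, overlaps FCGR1A and shares 19.7% of its coding 100-base windows with H2BC21, and it passed without DMSO replicate 3 (0.94).

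**Figure D3:**
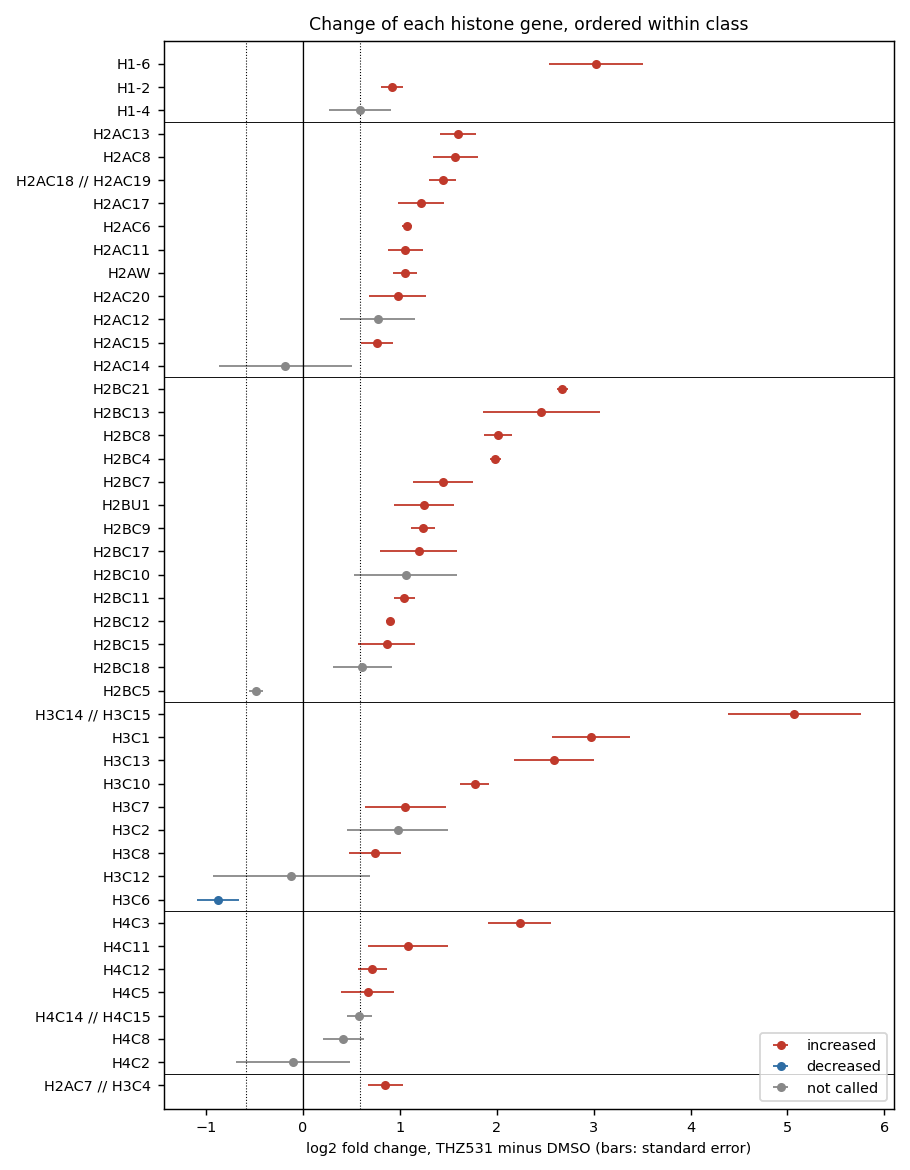
Log2 fold change of THZ531 over DMSO for the 45 tested histone rows, ordered within class, with the standard error of the limma fit as a bar and dotted lines at a fold of 1.5. The values run from -0.88 for H3C6 to 5.07 for H3C14 // H3C15, and 40 of 45 lie right of 0.

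Of the H2A genes, 9 of 11 tested increased, 0 decreased and 2 were not called. H2AC6 had 1551, 1603 and 1649 normalized reads with DMSO and 3514, 3329 and 3302 with THZ531. These groups stood apart, at a log2 fold change of 1.08 ± 0.051 (limma adjusted p = 3.3e-11). The joined row H2AC18 // H2AC19, a pair of near-identical genes, had 472, 354 and 278 with DMSO and 979, 1011 and 949 with THZ531, a log2 fold change of 1.44 ± 0.14. H2AW on the long arm of chromosome 1 had 190, 176 and 217 with DMSO and 411, 368 and 431 with THZ531, a log2 fold change of 1.05 ± 0.13. H2AC13 increased (log2 fold change 1.60) and H2AC14 did not (-0.18), but these genes share about 80.1% of the 100-base windows of H2AC13, so their reads may have been split between them. H2AC12 was not called, at 0.77 ± 0.38.

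The H3 genes held the largest increase and the only decrease, with 6 of 9 tested increased, 1 decreased and 2 not called. The joined row H3C14 // H3C15 is listed at chr1:149852604-149854274, and its genes encode the H3.2 protein. That interval holds the stem-loop of H3C15, while the stem-loop of H3C14 lies outside it, at chr1:149840687-149840712. The row had 7.94, 12.1 and 0 normalized reads with DMSO and 152, 130 and 221 with THZ531. The groups were well apart, on 23 reads over the DMSO libraries and 429 over the THZ531 libraries. This row reached the minimum only with values of the THZ531 libraries. Its log2 fold change of 5.07 ± 0.69 (limma adjusted p = 6.9e-06) depended on the pseudocount, at 3.46 with a pseudocount of 10, and was 3.93 without the DMSO library at 0. H3C13, which shares 22.0% of its coding windows with that row, had a log2 fold change of 2.59 ± 0.41.

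H3C10, which encodes H3.1, had 89.7, 90.9 and 113 with DMSO and 348, 330 and 330 with THZ531, a log2 fold change of 1.77 ± 0.15. H3C1 had 5.56, 6.50 and 7.18 with DMSO and 68.0, 46.6 and 58.0 with THZ531, a log2 fold change of 2.97 ± 0.40. H3C6 had 105, 128 and 140 with DMSO and 61.7, 81.8 and 59.2 with THZ531. It decreased by 0.88 on the log2 scale, with an SE of 0.22 (limma adjusted p = 0.0020), and its groups did not overlap. GENCODE gives H3C6 a spliced isoform, as it does H2BC5. Among the 12 tested members with a spliced isoform, which include H3C6 and H2BC5, 6 increased and 1 decreased, with a median log2 fold change of 0.74. Among the 33 without, 27 increased and 0 decreased, with a median of 1.09. The difference between these groups was not tested.

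The H4 genes had the lowest median log2 fold change of the 5 classes, at 0.67, and 4 of 7 tested increased, 0 decreased and 3 were not called. The joined row H4C14 // H4C15 had 812, 662 and 537 with DMSO and 1162, 996 and 838 with THZ531. Its groups did not overlap by a narrow margin, and its log2 fold change of 0.58 ± 0.13 (limma adjusted p = 0.00093) fell just short of the fold of 1.5. It passed the thresholds without DMSO replicate 1 (0.73) or without THZ531 replicate 3 (0.70). H4C12 had 271, 255 and 215 with DMSO and 516, 375 and 344 with THZ531, a log2 fold change of 0.72 ± 0.15. The call of H4C12 was lost without THZ531 replicate 1 (0.54), and its coding 100-base windows are all shared with H4C11, so its reads are uncertain. H4C8 had 160, 123 and 140 with DMSO and 127, 209 and 250 with THZ531, groups that overlapped, with a log2 fold change of 0.42 ± 0.22 that became 0.70, past the thresholds, without THZ531 replicate 1. H4C3 increased from 15.9, 13.0 and 14.4 to 59.2, 68.2 and 89.9, a log2 fold change of 2.24 ± 0.33.

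The H1 genes encode linker histones, which bind DNA between nucleosomes, and 2 of 3 tested increased. H1-2 had 680, 464 and 523 with DMSO and 1105, 1055 and 962 with THZ531, a log2 fold change of 0.92 ± 0.11 (limma adjusted p = 2.2e-06). H1-6, the testis linker histone, had 3.18, 5.57 and 3.19 with DMSO and 35.3, 42.1 and 38.7 with THZ531, a log2 fold change of 3.02 ± 0.48 on 14 and 99 reads. H1-4 had 39.7, 30.6 and 50.3 with DMSO and 80.6, 39.8 and 66.0 with THZ531, groups that overlapped, and it was not called (0.59 ± 0.32), although it passed without DMSO replicate 3 (0.76) or without THZ531 replicate 2 (0.87). The row H2AC7 // H3C4, which joins genes of different classes, increased by a log2 fold change of 0.85 ± 0.18.

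The 19 rows below the minimum were H2AC21, H4C1, H2BC6, H4C9, H2BC14, H2AC16, H1-1, H2AC4, H4C4, H1-3, H4C7, H1-5, H3C11, H2BC1, H3C3, H4C6, H2AC1, H2BC3 and H4C13. Together they summed to 24.6 to 50.1 normalized reads with DMSO and 54.2 to 76.2 with THZ531, and the last 6 had no reads in any library.

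Many H2A and H2B genes face away from each other across a short shared promoter region. In the table, 11 such pairs had starts under 500 bases apart, and both genes were tested in 9 of them, with gaps of 133 to 239 bases. Both genes increased in 8 of the 9. Among these, the partner of H2BC7 is the joined row H2AC7 // H3C4, whose value cannot be assigned to H2AC7 alone. In another, H2BC13 had few reads and its partner H2AC13 shares coding windows with H2AC14. Differences between partners were not tested. Some pairs had unlike values: H2BC21 had a log2 fold change of 2.68 and its partner H2AC20 one of 0.98, and H2BC4 had 1.99 and its partner H2AC6 had 1.08. In other pairs the values were close, at 1.04 for H2BC11 and 1.06 for H2AC11, and at 1.19 for H2BC17 and 1.22 for H2AC17. In the remaining pair H2BC12 increased and H2AC12 was not called.

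The chromosome 6 cluster (chr6:25726063-27893891) also holds genes that encode no histone, such as the butyrophilin genes of the immunoglobulin superfamily and zinc finger genes. Of 20 such tested loci with a symbol, 3 increased and 11 decreased, with a median log2 fold change of -0.77. The shares over all loci tested were 15.7% and 23.9%. For the 36 tested histone rows on chromosome 6, 26 increased and 1 decreased, with a median of 1.05. BTN2A2 fell from 400, 365 and 390 to 61.7, 76.2 and 83.1 (log2 fold change -2.38, limma adjusted p = 1.9e-09), and ZNF391 from 263, 290 and 322 to 49.1, 68.2 and 61.4 (-2.28). BTN3A3 (-2.08), HFE-AS1 (-1.60), ZNF204P (-1.37), TRIM38 (-1.36), BTN2A3P (-1.34), BTN3A1 (-1.30), PRSS16 (-0.82), BTN2A1 (-0.79) and BTN3A2 (-0.74; -0.58 and not called without DMSO replicate 1) also decreased. ZNF184 (1.57), LOC100270746 (1.47) and ZNF322 (0.63) increased.

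A pair of loci without a symbol lay beside histone genes. The locus at chr6:26128994-26132132, inside the span of H2AC6, had 86.5, 99.3 and 125 with DMSO and 363, 318 and 268 with THZ531, a log2 fold change of 1.61. The locus at chr6:26172075-26175284, just past the end of H2BC5, had 639, 835 and 796 with DMSO and 305, 306 and 272 with THZ531, a log2 fold change of -1.35. The former increased, as H2AC6 did, and the latter decreased, where H2BC5 had a log2 fold change of -0.48 and was not called.

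**Figure D4:**
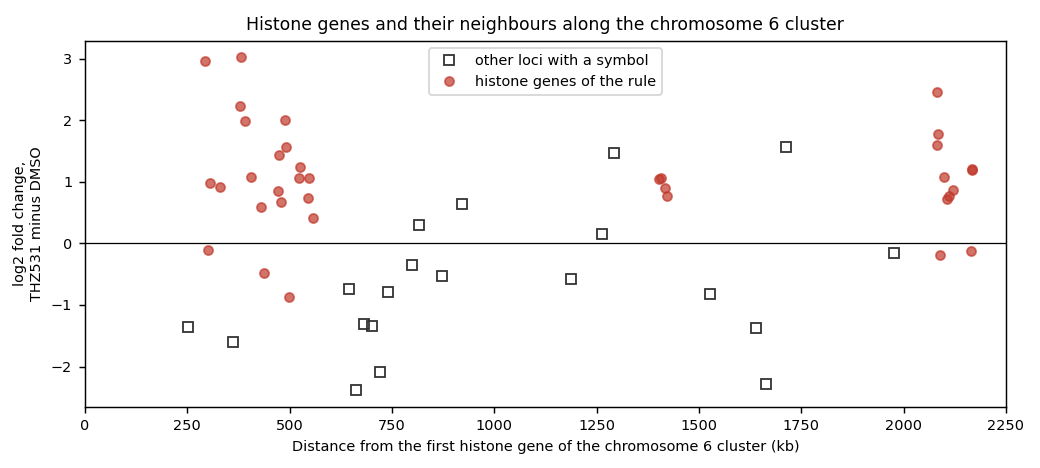
Log2 fold change of THZ531 over DMSO against the distance in kb from the first histone gene of the chromosome 6 cluster, for the 36 tested histone rows (filled circles) and 20 other loci with a symbol (open squares). Most circles lie above 0, with a median of 1.05, and 11 of the squares are loci that decreased, with a median of -0.77 for the squares.

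Histone genes are transcribed at the histone locus body, a nuclear structure scaffolded by NPAT, with CASP8AP2 (FLASH) as a shared factor of transcription and 3′ end formation. Of 11 genes listed for histone gene transcription, 2 increased (18.2%) and 2 decreased (18.2%), beside 15.7% and 23.9% of all loci. NPAT had 836, 946 and 914 with DMSO and 759, 705 and 739 with THZ531, with a log2 fold change of -0.29 ± 0.076 that was not called. CASP8AP2 fell from 2253, 2272 and 2439 to 587, 582 and 521, a log2 fold change of -2.04 ± 0.069 (limma adjusted p = 9.2e-13). HINFP, a regulator of H4 genes, decreased (-1.03 ± 0.11), while the octamer factor POU2F1 (0.86 ± 0.076) and YY1 (0.68 ± 0.034) increased.

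Of 18 genes listed for histone pre-mRNA 3′ end processing, 1 increased (5.56%) and 4 decreased (22.2%), beside 15.7% and 23.9% of all loci. SLBP had 3678, 3554 and 3516 with DMSO and 5188, 5066 and 5083 with THZ531, groups that did not overlap, with a log2 fold change of 0.51 ± 0.041 (limma adjusted p = 1.7e-08) that did not reach the fold of 1.5. LSM11, a protein of the U7 particle, fell from 710.5, 768 and 711 to 462, 493 and 431 (log2 fold change -0.66 ± 0.087), and its partner LSM10 had a log2 fold change of -0.56 ± 0.056, short of the fold. ZNF473 (ZFP100), which contacts LSM11, had a log2 fold change of -0.11 ± 0.062 (adjusted p = 0.14). The cleavage factors CPSF2 (-1.03), CPSF3, the endonuclease (-0.60), and CSTF2T (-1.12) decreased. The call of CPSF3 was lost without THZ531 replicate 1 (-0.53). SRRT (ARS2), a cap-complex partner, increased (0.75 ± 0.037).

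Of 12 genes listed for translation and decay of histone mRNA, 1 increased (8.33%) and 2 decreased (16.7%), beside 15.7% and 23.9% of all loci. The exonuclease XRN1 increased from 440, 629 and 533 to 1053, 1272 and 1248 (log2 fold change 1.17 ± 0.11). The uridylyl transferase TUT7 (-0.87 ± 0.064) and the translation factor CTIF (-1.61 ± 0.24) decreased, and ERI1, which trims the stem-loop end, was at 0.50 ± 0.068, not called. Over the 3 lists together, 4 of 41 increased (9.76%) and 8 decreased (19.5%), with a median log2 fold change of 0.04, beside 15.7% and 23.9% of all loci. These counts moved with the scaling: 2 increased and 10 decreased with libraries at the same total, and scaling to RPL34 gave 1 increase and 16 decreases, where 9.38% and 32.0% of all loci, and 6.14% and 42.8%, were called up and down.

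Replication-independent histones are made outside S phase as well, from genes that give polyadenylated mRNAs, though H2AX also carries a stem-loop after its stop codon. Of 12 tested, 4 increased (33.3%) and 1 decreased (8.33%), beside 15.7% and 23.9% of all loci, with a median log2 fold change of 0.38. The linker histone H1-10 had 5618, 5386 and 5087 with DMSO and 9000, 8954 and 8738 with THZ531 (log2 fold change 0.73 ± 0.042). H2AZ2 (0.71), H3-3A, which encodes H3.3 (0.63), and H2AZ1 (0.61) were the others that increased. MACROH2A2, a variant with a macro domain, fell from 1893, 1965 and 2054 to 933, 866 and 857 (log2 fold change -1.15 ± 0.062). Values that were not called include 0.29 for H3-3B, 0.25 for H2AX, 0.25 for H2AJ, 0.15 for MACROH2A1, 0.02 for CENPA and 0.47 for H3-5, the last on few reads. None of the 4 increases was called with libraries at the same total, where H1-10 had 0.49, H2AZ2 0.47, H3-3A 0.39 and H2AZ1 0.36, or with scaling to RPL34. The increases of H2AZ1 and H3-3A were also lost without THZ531 replicate 1 (0.58 and 0.57), and that of H3-3A without DMSO replicate 1 (0.57).

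Of 20 histone chaperones and deposition factors, 4 increased (20%) and 3 decreased (15%), beside 15.7% and 23.9% of all loci. Their median log2 fold change was 0.29. ASF1B, a chaperone of new H3 and H4, fell from 2364, 2220 and 2183 to 783, 767 and 821 (log2 fold change -1.51 ± 0.061). CHAF1A, of the replication-coupled CAF-1 complex (-0.81), and HIRA, which deposits H3.3 (-0.73), decreased. UBN1 (0.90) and CABIN1 (0.85), the partners of HIRA, increased, as did MCM2 (0.75) and RBBP7 (0.62). Scaling to the same total and to RPL34 moved log2 fold changes by about -0.24 and -0.49. These scalings lower the increases and the median of this list, and its counts with them are not given here.

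Since histone mRNA is tied to S phase, a list of 43 S phase genes was set beside it. Of these, 9 increased (20.9%) and 6 decreased (14%), beside 15.7% and 23.9% of all loci. Their median log2 fold change was 0.23. PCNA, the sliding clamp of DNA replication, increased (0.86), as did GMNN (0.79), while E2F8 (-1.35), RPA2 (-0.87) and PRIM1 (-0.83) decreased; these were chosen after their values were seen. The list shares CASP8AP2, SLBP, MCM2 and other genes with those above. Scaling to the same total or to RPL34 lowers its increases and its median too, and its counts with them are not given here. The share of cells in S phase was not measured in these libraries, and its part in the histone result was not tested. In bulk RNA, fewer cells with a transcript and less transcript per cell cannot be told apart.

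**Figure D5:**
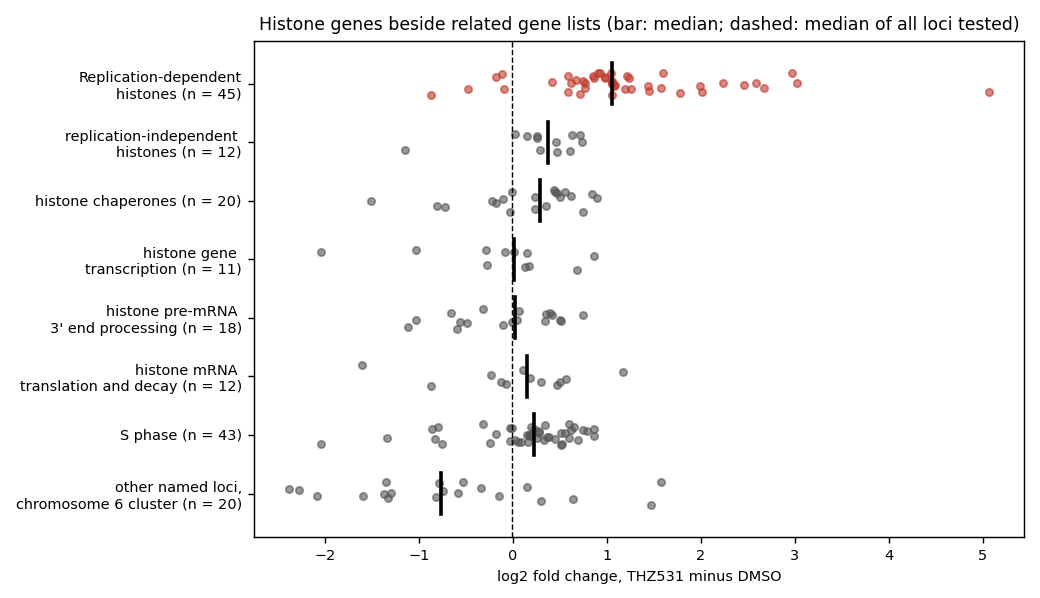
Log2 fold change of THZ531 over DMSO for each tested gene of the replication-dependent histones (n = 45), 6 related lists and the 20 other loci of the chromosome 6 cluster, with a bar at each median and a dashed line at the median of all loci, -0.01. The median of the replication-dependent histones is 1.06, those of the 6 lists run from 0.01 to 0.38, and that of the cluster loci is -0.77.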

How the data were processed

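Gene values were deposited as a table in which the authors divided read counts by DESeq2 size factors (a normalized signal per gene, not corrected for length), for 3 DMSO and 3 THZ531 libraries. Per the paper's methods, reads from polyA libraries were mapped to hg38 with STAR and counted with featureCounts on FAST DB models. The submitters' notes give STAR 2.7.5a, while those methods name an older release, so the version is uncertain. Whether counting used strand is not given in the sources used here. Authors' fold changes and p-values in the table were not used. Groups follow the sample titles.

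Dividing by the value of 1 read gave whole reads for 100% of values within 0.001, so edgeR and DESeq2 could be run on the recovered reads as alternatives. The main test was limma with a trended variance on log2(value + 1), over the 17568 loci that reached 10 in 3 or more libraries, with Benjamini-Hochberg adjustment over all of them (R 4.3.3, limma 3.58.1, edgeR 4.0.16, DESeq2 1.42.0). It was tested on simulated data. Changed means a fold of at least 1.5 and p of at most 0.05. The summed level was tested by exact permutation of libraries.

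Stem-loops came from hg38 with GENCODE 44 and promoters from RefSeq on GRCh38.p14. Named genes were the 3 highest by mean in each class, the 5 largest increases and decreases past the thresholds at a mean of at least 50 with groups apart, listed regulators, list members past the thresholds at a mean of at least 100, the replication-independent histones tested (a single one is not reported here) and the called neighbours on chromosome 6. Others were named after their values were seen. The members and lists were chosen with earlier results of these data known. Alternatives were other pseudocounts, minimums, scalings, thresholds and tools, a replicate block and leaving out each library.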

Additional observations from a re-analysis of the deposited data

How the results depend on the processing

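The main counts were 33 histone genes increased and 1 decreased. Leaving out each library in turn gave 30 to 35 increased and 1 decreased each time, a median log2 fold change of 0.99 to 1.12 and a summed log2 ratio of 1.12 to 1.18. The pathway lists then gave 4 to 5 increased and 7 to 8 decreased, and the replication-independent histones 2 to 4 increased and 1 decreased. With the same total in each library, 2 histone genes decreased, the median was 0.82, 2 pathway genes and 0 replication-independent histones increased. With scaling to RPL34, 17 histone genes increased and 2 decreased, the median was 0.57, 1 pathway gene increased and 16 decreased, and 0 replication-independent histones increased. At a fold of at least 2, 24 histone genes increased and 0 decreased, 1 pathway gene increased and 5 decreased, and 0 replication-independent histones increased. With a pseudocount of 10 the median was 0.90. The cause of these shifts, other than the scaling and the threshold themselves, was not tested. No named gene changed sign past its threshold in any alternative run. By edgeR 34 histone genes increased and by DESeq2 33, and 64 and 65 of 65 named genes kept their side of the thresholds, with H2AZ1 lost in edgeR.

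The replicate numbers are shared between the groups, but deviations of same-numbered libraries correlated at 0.0017, 0.019 and -0.039, so the numbers were not taken to pair the samples. A fit with a replicate block gave 33 increased and 1 decreased, and changed no call among the 65 named genes.

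Small counts limit the low members: 13 of the 45 tested had a mean under 50 normalized reads. Rows below the minimum were not tested. The values cover polyA-selected RNA, overlapping genes and near copies can share reads, and the 3 libraries per group allow no permutation p below 0.1. After seeing the data, the counts were repeated for the 41 members whose spans overlap no other named locus, of which 30 increased and 1 decreased.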

Other observations

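The pseudogene row H2BC20P, which the choice by symbol leaves out, had 633, 628 and 476 normalized reads with DMSO and 640, 517 and 545 with THZ531, a log2 fold change of -0.02 (limma adjusted p = 0.87). An AATAAA or ATTAAA lay within 100 bases after the stop codon of 4 tested histone rows, H2BC5 at 64 bases, H1-2 at 55, H2AC18 // H2AC19 at 96 and H4C11 at 15, of which 3 increased, and among the other 41 tested rows 30 increased. On chromosome 1, 7 of 9 tested histone rows increased, with a median log2 fold change of 1.25.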
